A study of Rattus norvegicus with 4 samples.

Results

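The genes described here are the splicing factors of NR8383 cells, chosen by name alone: every non-control probe whose gene symbol begins with Snrp, Sf3a, Sf3b, Srsf, Prpf, U2af or Lsm. The pattern took in 62 of 17582 named genes, 96 of 45598 probes and 211 of 58717 non-control spots. The rule reads symbols and no signal. The pattern also caught Lsmem1 and Lsmem2, which name membrane proteins, and Snrpc-ps1, which names a pseudogene; these 3 are kept in every count and described apart.

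NR8383 is an alveolar macrophage line established by lavage of a normal rat lung, and the labels describe cells after 20 passages in DMEM supplemented with 15% heat-inactivated serum plus glutamine at 2 mM. The 4 samples form 1 group, the submerged control named Ctrl_sub, so no comparison between conditions could be made; the question left is which splicing factors these cells express and how far replicates differ. The design text calls the samples biological replicates and gives 4 h of incubation, whereas the treatment protocol gives 48 h after seeding; which interval applies was not settled here. Nothing else says that the samples came from separate cultures, so every SD and p-value measures only the spread between these 4 samples.

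The spliceosome removes introns from nuclear pre-mRNA. Its small nuclear ribonucleoprotein particles (snRNPs) each hold a small RNA wrapped in a ring of Sm or LSm proteins, and particle-specific proteins sit on that core. The U1 particle recognises the 5′ splice site, U2AF and the U2 particle with SF3A and SF3B select the 3′ splice site and the branch point, and the U4, U5 and U6 particles bring in the catalytic core with the PRPF proteins. SR proteins bind exons through RNA recognition motifs and steer the choice of splice sites. Macrophages, like other cells, need this machinery for almost every intron-containing transcript.

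Cy3-labelled RNA was read on one-colour arrays, all on 1 slide and scanned together. The processed signal had its 75th percentile at 1317, 1489, 1179 and 958 units in replicates 1 to 4, and no spot was saturated. A level below is the log2 processed signal of a probe minus the 75th percentile of its array, so that 0 is that percentile. For a gene, the brightest of its detected probes supplies the level. Probes differ in hybridisation, so levels of different probes are not set against each other. Detection of a probe on an array required more than 0.5 of its spots to carry the software's flag for signal well above background. Genes were called detected if 1 or more of their probes met this on all 4 arrays. All 12 macrophage markers examined, among them Csf1r, Spi1 and Cd68, were detected. None of 8 lung epithelial, 5 fibroblast, 6 neuronal and 5 T and B cell markers was detected on all arrays.

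Of the 62 genes, 56 (90.3%) were detected on all 4 arrays, beside 55.8% of all named genes. Only 3 (4.84%) were detected on no array, beside 37% of all named genes. By probe, 85 of 96 (88.5%) were detected on all arrays, beside 42.5% of all probes. These shares describe the genes and were not tested as a set. Every class of the core machinery had most of its members detected: 6 of 8 Sm genes, 4 of 4 particle-specific genes, 12 of 13 LSm genes, 3 of 3 Sf3a, 6 of 6 Sf3b, 2 of 2 U2af, 12 of 12 Prpf and 10 of 11 Srsf genes.

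**Figure D1:**
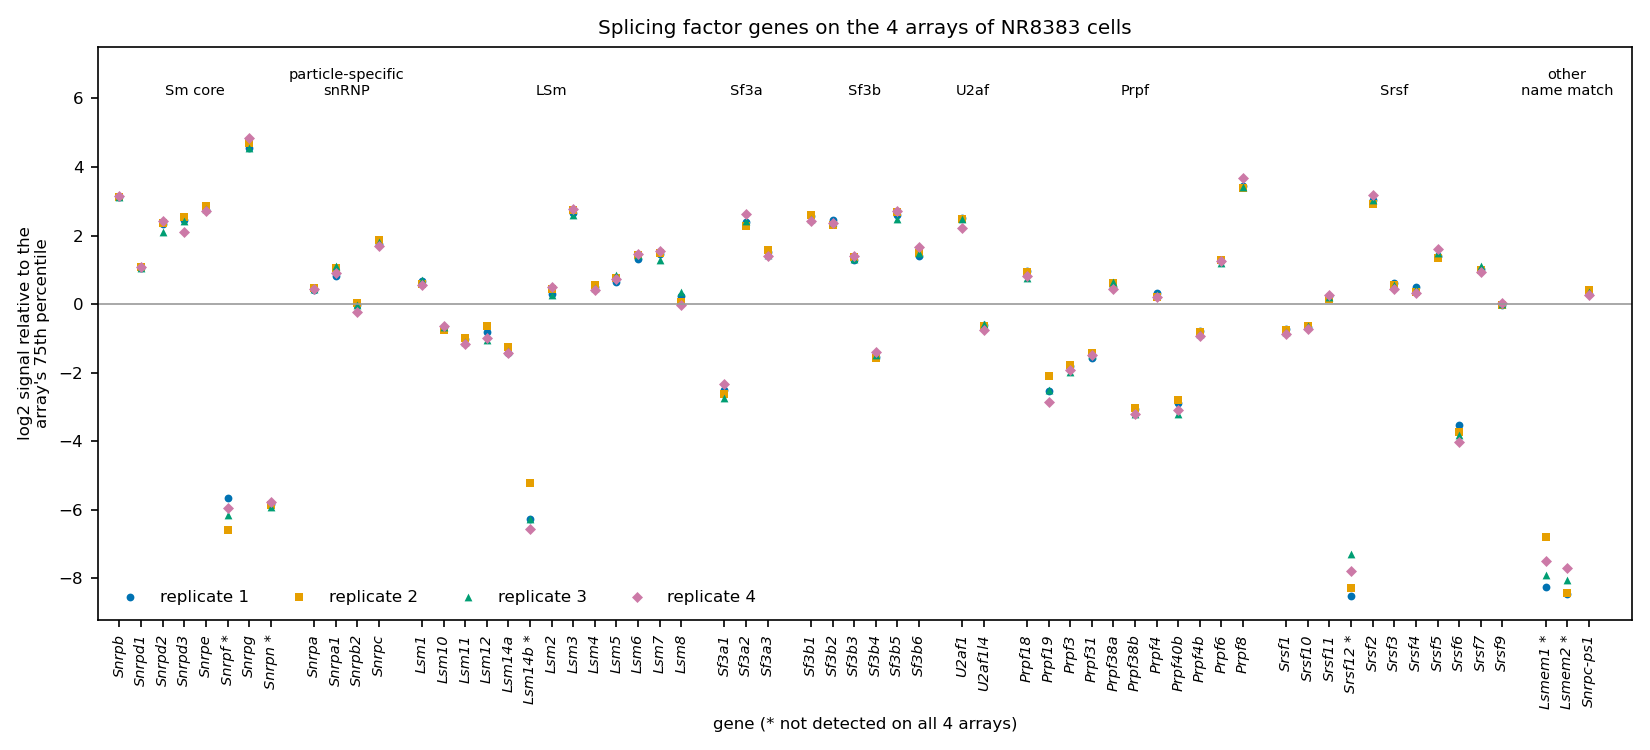
Level of the member genes on each of the 4 arrays, in log2 units relative to the 75th percentile of the array (grey line at 0), grouped by class. Points of 1 gene lie close together for the detected genes, and the 6 genes marked with an asterisk, not detected on all arrays, lie below -5.

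**Figure D2:**
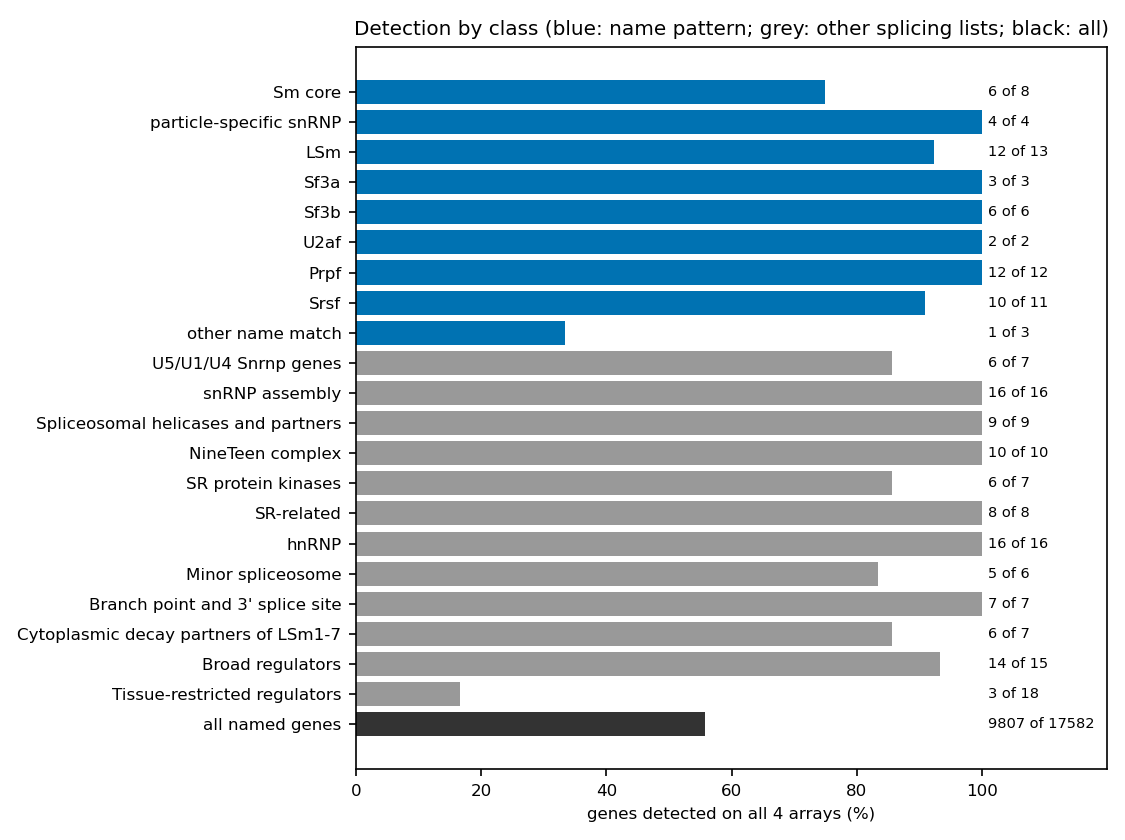
Percentage of genes with a probe detected on all 4 arrays, for the classes of the name pattern (blue), for other splicing lists (grey) and for all named genes (black). Counts stand at the right of each bar; 3 of 18 tissue-restricted regulators were detected, against 9807 of 17582 named genes.

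Of the 7 genes of the Sm ring that the U1, U2, U4 and U5 particles carry, 6 were detected. Snrpb, which encodes the B proteins of that ring, had levels of 3.12, 3.13, 3.12 and 3.17 on replicates 1 to 4 (mean 3.13 ± 0.023, SD, n = 4). Its 4 values lay within a 1.04-fold range, among the 3 narrowest ranges of the detected members. Snrpd1, another subunit of the ring, was nearly as even, with levels of 1.06, 1.10, 1.05 and 1.10 (SD 0.027). This evenness holds for the brightest probe of each gene. The other detected probe had an SD of 0.081 for Snrpb (1.13-fold range) and 0.073 for Snrpd1 (1.11-fold range). Snrpd3, which joins the ring as a pair with the B proteins, had a wider range. It had levels of 2.44, 2.54, 2.42 and 2.10, a 1.36-fold range with its lowest value on replicate 4. Snrpd2, Snrpe and Snrpg were detected by both of their probes, at 2.31 ± 0.140, 2.78 ± 0.060 and 4.66 ± 0.130 (SD, n = 4 each).

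The probes of the small Sm genes are shown because 3 of them read across an intron. On rn4, the build of the array's annotation, each of these 60-base probes spans more than 100 bases of genome, as a probe laid across an intron does; it binds spliced RNA, or a processed copy of the gene, over its whole length. The Snrpe probe lies on the minus strand at chr13:46522504-46524957, the Snrpg probe on the plus strand at chr4:120553954-120554832 and the Snrpd2 probe on the plus strand at chr1:78510682-78511765. The genome removes 2394, 819 and 1024 bases within them. The Snrpe and Snrpg levels above come from the other probe of each gene. The junction probes of Snrpe and Snrpg had mean levels of 0.99 and 3.17. Probe sequences below are given 5′ to 3′ as the deposited files list them, in lower case throughout.
Snrpe: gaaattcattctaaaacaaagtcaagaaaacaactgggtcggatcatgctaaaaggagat
Snrpg: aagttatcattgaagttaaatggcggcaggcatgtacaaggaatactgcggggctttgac
Snrpd2: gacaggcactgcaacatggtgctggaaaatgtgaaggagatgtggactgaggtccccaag

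Snrpf and Snrpn were the Sm genes not detected on all arrays, and each has 1 probe. Snrpf, the remaining subunit of the ring, passed on 1 array, with levels of -5.66, -6.60, -6.15 and -5.95. Snrpn, a paralogue of Snrpb known for its expression in brain and for imprinting in human and mouse, passed on 2 arrays, with levels of -5.84, -5.87, -5.91 and -5.78 from 10 spots per array. On the arrays where a probe did not pass, its value is not well above background. It gives there only an upper bound for the RNA that the probe binds. Both genes passed when the software's weaker flag, positive and significant signal, was used, and Snrpn also passed when 2 arrays sufficed. Whether the single Snrpf probe had failed was not tested. The Snrpn probe lies at chr1:111583764-111583823 on the minus strand of rn4, in a transcript whose human and mouse forms also carry the upstream Snurf reading frame; which frame lies under the probe was not annotated in the files used here. The Snrpf probe, of which bases 31 to 60 are given, lies at chr7:30644621-30644680 on the minus strand.
Snrpn: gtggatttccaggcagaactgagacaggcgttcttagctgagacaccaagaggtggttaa
Snrpf: tccaaaccacccttaacatgtataaagtta

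RNA was detected for each of the 4 members that encode proteins of the U1 or U2 particle alone. Snrpa, the A protein of the U1 particle, had levels of 0.40, 0.48, 0.44 and 0.45, a 1.06-fold range. Snrpc, the C protein of the U1 particle that steadies its pairing with the 5′ splice site, lay at 1.79 ± 0.081 and was detected by all 3 of its probes. Snrpa1 and Snrpb2, partners on the U2 particle, lay at 0.98 ± 0.138 and -0.06 ± 0.106 (SD, n = 4 each). RefSeq lists 10 pseudogenes named after Snrpc on GRCr8, and signal from such copies was not separated from that of the gene.

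Every subunit of both LSm rings was detected. LSm2 to LSm7 are shared by the nuclear ring, which LSm8 completes on U6 RNA, and by the cytoplasmic ring, which LSm1 completes and which promotes decay of deadenylated mRNA. Lsm1 had levels of 0.66, 0.59, 0.70 and 0.57 (mean 0.63 ± 0.063, SD, n = 4), a 1.10-fold range. Lsm8 averaged 0.16 ± 0.171 with a 1.30-fold range, lowest on replicate 4. The shared subunits Lsm2, Lsm3, Lsm4, Lsm5, Lsm6 and Lsm7 had fold ranges of 1.17, 1.13, 1.11, 1.15, 1.11 and 1.19. The variance test described below called none of them.

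Lsm10 and Lsm11, which replace the SmD1 and SmD2 proteins in the U7 particle that processes histone mRNA, lay at -0.68 ± 0.057 and -1.07 ± 0.070 (SD, n = 4 each). Lsm14a, a protein of cytoplasmic RNA granules, lay at -1.37 ± 0.082, whereas its paralogue Lsm14b was detected on 1 array only, with levels of -6.28, -5.23, -6.27 and -6.56. Lsm12, a family member outside the rings, had levels of -0.80, -0.63, -1.05 and -0.99, a 1.34-fold range.

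Lsm5 and Lsm6 each have several probes. The 2 Lsm5 probes have the same 60 letters, and their levels differed by 0.04, 0.00, -0.03 and 0.00 on the 4 arrays. These differences hold the error of printing and reading the same letters at different places on an array. Lsm6 has 3 probes. The probe with 10 spots, starting at base 477 of the transcript, had levels of 1.33, 1.43, 1.44 and 1.48, and the probe across an intron of 2801 bases followed it within 0.0197. The third, starting at base 1503, was detected on no array, with levels of -7.32, -8.28, -7.94 and -7.48, and whether it had failed was not tested. Shown here are the Lsm5 probe at chr4:85657062-85657520, the Lsm6 junction probe at chr19:30879545-30882405 and bases 31 to 60 of the undetected Lsm6 probe at chr19:30878415-30878474, all on the minus strand of rn4.
Lsm5: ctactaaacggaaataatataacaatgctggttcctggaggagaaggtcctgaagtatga
Lsm6: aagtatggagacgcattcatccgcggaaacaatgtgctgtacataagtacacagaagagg
Lsm6 undetected: taactcaggaaagacaaaaaatgttttgta

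The 2 U2af, 3 Sf3a and 6 Sf3b genes, which act at the 3′ splice site and the branch point, were detected. The U2af genes here are U2af1 and U2af1l4. No member probe carries the symbol U2af2, the large U2AF subunit, so its RNA was not examined. U2af1, the small U2AF subunit that reads the AG at the end of an intron, had levels of 2.50, 2.49, 2.48 and 2.21 (mean 2.42 ± 0.140, SD, n = 4). Replicates 1 to 3 agreed closely and replicate 4 lay below them, within a 1.22-fold range overall. U2af1 has 1 probe, printed on 10 spots. U2af1l4, a paralogue of U2af1, lay at -0.64 ± 0.084 by the probe that gives its level.

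Sf3a1, the largest SF3A subunit, had levels of -2.50, -2.63, -2.73 and -2.32, a 1.33-fold range. Sf3a2 and Sf3a3, its partners, lay at 2.44 ± 0.138 and 1.49 ± 0.076 (SD, n = 4 each). Both Sf3a1 and Sf3a2 were highest on replicate 4. The Sf3a2 junction probe, at chr7:10420861-10420996 on the minus strand of rn4, crosses the shortest gap of any member probe, 76 bases. Another probe supplied the Sf3a2 level above. The junction probe itself was detected at a mean level of -4.28.
Sf3a2: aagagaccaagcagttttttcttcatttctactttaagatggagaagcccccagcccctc

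Sf3b1, the scaffold of SF3B that clamps the branch helix, had levels of 2.57, 2.61, 2.47 and 2.43 (mean 2.52 ± 0.084, SD, n = 4). All 4 of its probes were detected, more probes than for any other member. Sf3b2, Sf3b3 and Sf3b5 lay at 2.39 ± 0.062, 1.34 ± 0.055 and 2.62 ± 0.092. Sf3b4, which binds RNA upstream of the branch point, lay at -1.50 ± 0.081, and Sf3b6, which sits near the branch adenosine, lay at 1.52 ± 0.105 (SD, n = 4 each). The 6 Sf3b genes had fold ranges between 1.09 and 1.19 across replicates.

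All 12 Prpf genes were detected. Prpf8, the scaffold of the catalytic centre, had a mean level of 3.48 ± 0.130, and Prpf6, which bridges U5 to the U4/U6 particle, of 1.25 ± 0.040 (SD, n = 4 each). Prpf3, Prpf4 and Prpf31, proteins of the U4/U6 particle, lay at -1.86 ± 0.100, 0.26 ± 0.063 and -1.49 ± 0.068. Prpf18, which acts in the second catalytic step, had levels of 0.97, 0.94, 0.75 and 0.82. Prpf38a, Prpf38b and the kinase Prpf4b lay at 0.55 ± 0.094, -3.12 ± 0.088 and -0.85 ± 0.066. Prpf40b, linked to the U1 particle through its yeast counterpart, had levels of -2.87, -2.81, -3.20 and -3.10 (mean -2.99 ± 0.188, SD, n = 4).

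Prpf19, the ubiquitin ligase at the centre of the Prp19 complex, had the largest spread of all 56 detected members. Its levels were -2.53, -2.09, -2.52 and -2.86 (mean -2.50 ± 0.316, SD, n = 4), a 1.71-fold range. Replicate 2 was the highest and replicate 4 the lowest. This spread did not pass the variance test (limma, Benjamini-Hochberg adjusted p = 0.778). Prpf19 has 1 probe, so no second probe checks the pattern.

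Prpf31 joins Lsm6 as a gene with 1 probe detected on all arrays and another on none. The detected Prpf31 probe starts at base 1498 of the transcript and had levels of -1.58, -1.42, -1.47 and -1.48. The undetected probe, starting at base 2344, had levels of -8.25, -8.21, -7.87 and -7.47. Less complete misses occurred for Prpf18, whose probe at base 2234 passed on 3 arrays, and Prpf40b, whose probe at base 1724 passed on 2. The last 30 bases of the undetected Prpf31 probe, at chr1:63888815-63888874 on the minus strand of rn4, follow; whether this probe had failed was not tested.
Prpf31 undetected: gggcttcatcaagggaaaagaagaacagtg

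Of the 11 genes of SR proteins, 10 were detected. Srsf1, the founding SR protein, had levels of -0.72, -0.77, -0.80 and -0.86 (mean -0.79 ± 0.055, SD, n = 4). Srsf2, which stays in the nucleus, lay at 3.04 ± 0.116, and Srsf3 and Srsf7, which shuttle and couple splicing to export, lay at 0.54 ± 0.077 and 1.02 ± 0.076. Srsf4, Srsf5 and Srsf11 lay at 0.40 ± 0.081, 1.46 ± 0.106 and 0.21 ± 0.045 (SD, n = 4 each). Srsf9 had the smallest spread of any detected member, with levels of -0.01, -0.02, 0.00 and 0.03, a 1.03-fold range. Srsf6 was at the other end, with levels of -3.51, -3.74, -3.80 and -4.02, a 1.42-fold range that was lowest on replicate 4. RefSeq lists 10 pseudogenes of Srsf3 and 7 of Srsf7 on GRCr8. Over all classes it lists 68 pseudogenes for 24 members, among them 8 for Snrpg. Their part in the signal was not tested.

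Srsf10, which represses splicing when it loses its phosphates, had levels of -0.66, -0.65, -0.65 and -0.73. Srsf12, its close relative, was detected on no array, with levels of -8.50, -8.28, -7.29 and -7.77. The relatives are therefore separated by detection in these cells, as far as 1 Srsf12 probe can show. The Srsf10 probe and the Srsf7 probe each cross an intron, of 329 and 778 bases. On rn4 they lie at chr5:154644783-154645171 on the plus strand and chr6:3098739-3099576 on the minus strand, and the Srsf12 probe lies at chr5:49521563-49521622 on the plus strand.
Srsf10: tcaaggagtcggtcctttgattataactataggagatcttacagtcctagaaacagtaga
Srsf7: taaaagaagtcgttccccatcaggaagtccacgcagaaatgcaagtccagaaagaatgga
Srsf12: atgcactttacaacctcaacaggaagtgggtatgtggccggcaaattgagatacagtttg

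Of the 3 symbols that match the pattern and name something else, 1 was detected. Snrpc-ps1, listed as a pseudogene of Snrpc, had levels of 0.30, 0.40, 0.36 and 0.28. How far its probe also binds Snrpc RNA was not tested. Lsmem1 and Lsmem2 were detected on no array, with levels of -8.25, -6.80, -7.89 and -7.48 for the brighter of the 2 Lsmem1 probes and of -8.46, -8.42, -8.03 and -7.70 for Lsmem2. With Srsf12, these are the 3 genes that no array detected.

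Probes that cross an exon junction were all detected. Among the 91 member probes with a position on rn4, 15 (16.5%) spanned at least 100 bases, beside 9.09% of all mapped probes. All 15, from 14 genes, were detected on all arrays, beside 45.7% of all such probes. The bases removed within them numbered between 76 and 2801. The 96 probes lie in 95 distinct sequences, and those with a position are spread over 18 chromosomes, with 46 on the plus strand and 45 on the minus strand. No probe outside the group has the sequence of a member probe. A polyadenylation signal hexamer occurred in 15 of 96 probes (15.6%), beside 12.6% of all probes.

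More than 1 probe was present for 26 of the 62 genes (41.9%), beside 30.2% of all named genes. All probes were detected for 21 of the 26, some for 4 and none for 1, Lsmem1. In the 23 genes with at least 2 detected probes, the deviation of each probe from its own mean was compared array by array. The largest gap between probes of the same gene was 0.130 at the median, and below 0.2 for 16 genes. These genes include Lsm5, whose probes have the same letters. Agreement was closest for Lsm6, Snrpd2 and Snrpg, with gaps of 0.0197, 0.0210 and 0.0213. U2af1l4 had the widest gap, 0.565. Its probe at base 1337 was high on replicate 4 at -4.79, against -5.40, -5.39 and -5.36 on the others, and its other probes were not. Prpf40b, Srsf7 and Srsf10 followed with gaps of 0.490, 0.337 and 0.324. The U2af1l4 probe at base 1337 and the Prpf40b probe at base 882 were dim, with mean levels of -5.24 and -5.81. What part signal near background had in these gaps was not tested.

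**Figure D3:**
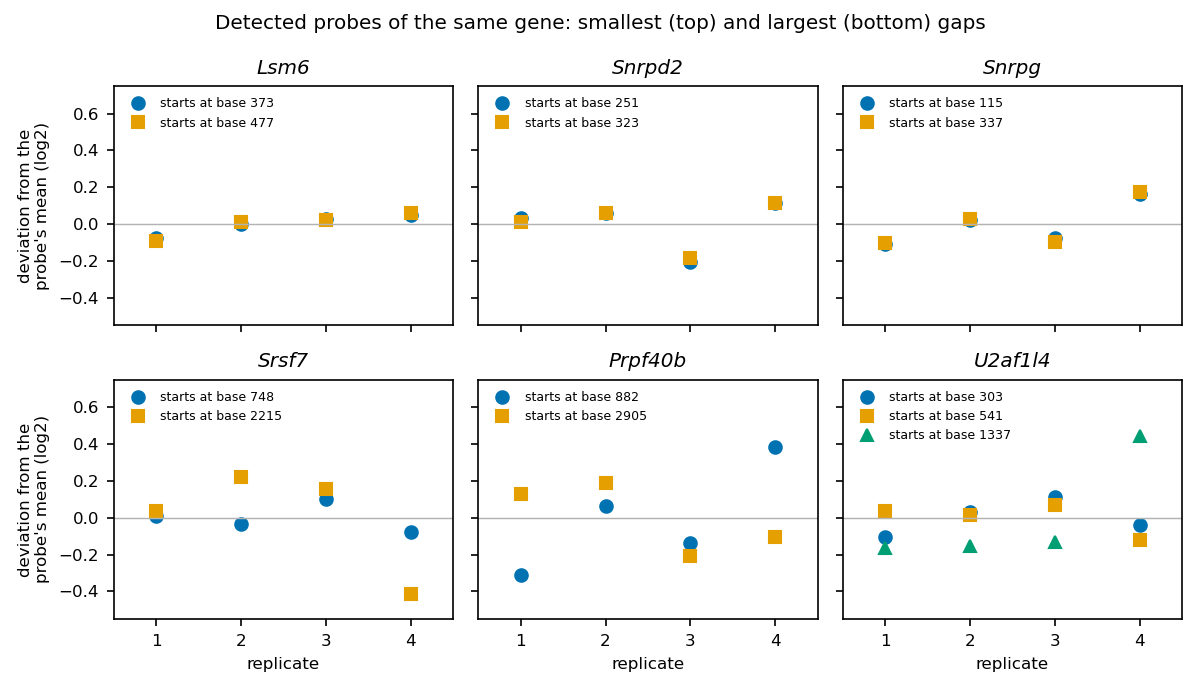
Deviation of each detected probe from its own mean over the 4 arrays (log2), by replicate, for the 3 genes with the smallest gaps between probes (top) and the 3 with the largest (bottom). Symbols overlap for Lsm6, Snrpd2 and Snrpg, whose gaps lie between 0.0197 and 0.0213, and separate on replicate 4 for U2af1l4, whose gap is 0.565. The U2af1l4 probe that is high there, starting at base 1337, is dim, with a mean level of -5.24.

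Spread between replicates was measured relative to the 75th percentile of each array. The SD of the 56 detected members lay between 0.0205 and 0.316, with a median of 0.0828, beside a median of 0.111 over all 9807 detected genes. On the scale of the spike-in probes, which shifts every gene of an array alike, the median SD of the members was 0.507. With the percentile as the scale, as in the values that follow, the SD was below that of the median gene for 42 of the 56. Spread depends on signal, so genes of like level were also set side by side. Between levels of -0.67 and 1.59, the middle range of the members, the median SD was 0.0758 for 28 members and 0.0915 for 2919 detected genes. The 6 members with the largest SD were Prpf19, Srsf6, Snrpd3, Lsm12, Prpf40b and Sf3a1. The variance test set the residual variance of each detected probe against that of probes of like signal. It called 0 of 85 member probes after Benjamini-Hochberg adjustment at 0.05, beside 0.17% of all detected probes. At an unadjusted p below 0.05 it also called 0 of 85, beside 6.5% of all detected probes. For the 11 detected member probes among the 12 printed on 10 spots, the SD between arrays was between 2.82 and 15.3 times the standard error of a 10-spot mean. That standard error covers spots within an array and leaves out labelling, hybridisation and scaling.

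**Figure D4:**
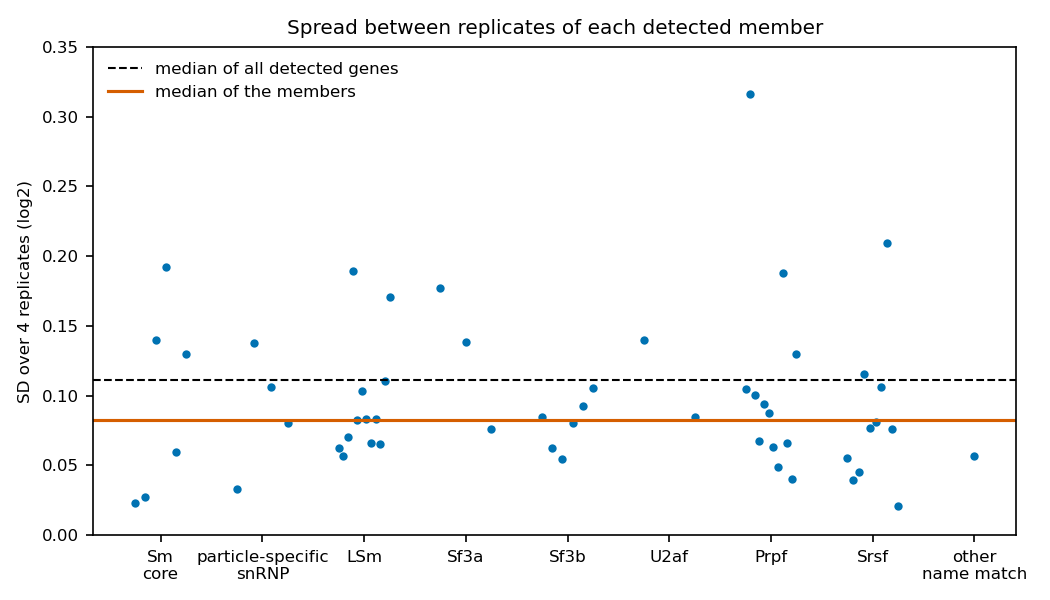
SD over the 4 replicates of the level of each of the 56 detected genes (log2), by class; lines give the median of the members, 0.0828, and of all detected genes, 0.111. Prpf19 stands highest at 0.316, and 42 of the 56 points lie below the line of all detected genes.

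Deviations from array to array were small and went both ways among the members. The median deviation of the 56 members from their own means was 0.01, 0.03, -0.01 and -0.05 on replicates 1 to 4. That is a range of 0.0886, beside a range of 0.0194 for all detected genes. The latter is small largely by construction, because scaling by the 75th percentile holds the medians of all detected genes close together. The members' range was 0.0483 without replicate 2, 0.0497 without replicate 4 and 1.07 on the scale of the spike-in probes. On the spike-in scale the medians of all detected genes were 0.39, 0.40, -0.21 and -0.59. On replicate 4 the median of the members lay 0.0605 below that of all detected genes. On that array 25 of the 56 (44.6%) had their lowest level, beside 28.5% of all detected genes, while 19 (33.9%) had their highest there, beside 32%. Replicate 4 was the array with the lowest 75th percentile of signal, and the part of that in the shift was not tested. With the 8 spike-in probes as the scale in place of the percentile, 55 of the 56 members and 91.9% of all detected genes were lowest on replicate 4, so the share depends on the scale. The distance between the members and all detected genes on replicate 4 was -0.0597 with normexp background correction and -0.0393 with quantile normalization.

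The shift on replicate 4 differed by class. The median deviation there was -0.17 for the 2 U2af genes, -0.08 for the particle-specific genes, -0.06 for Srsf, -0.05 for Prpf and -0.04 for LSm genes. It was positive for the Sm core (0.03), for Sf3b (0.07) and for the 3 Sf3a genes (0.19). These classes hold between 2 and 12 detected genes, and the differences between them were not tested. Dixon's ratio, which sets the gap of the most distant array against the whole range, marked 2 of the 56 genes (3.57%), U2af1 and Srsf10, beside 5% of all detected genes.

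**Figure D5:**
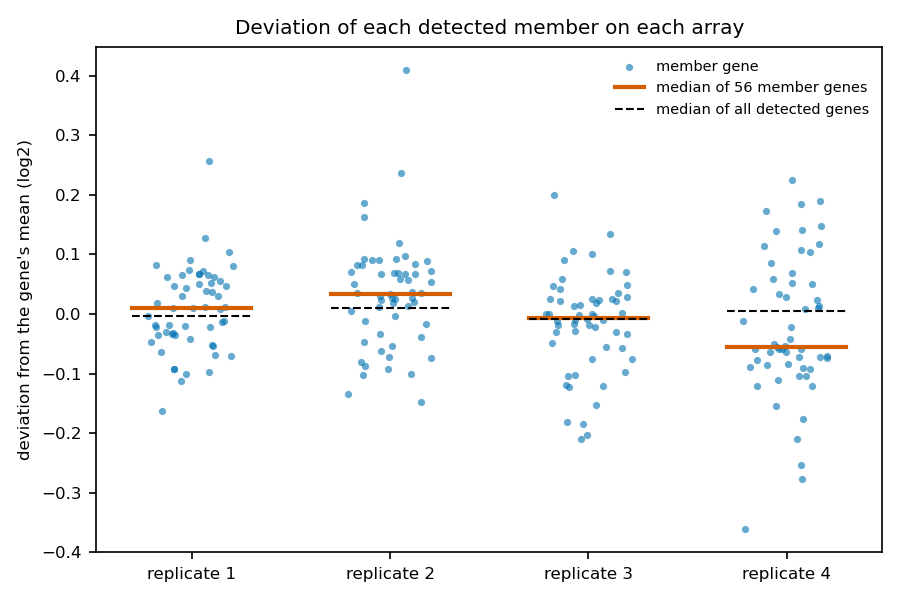
Deviation of each of the 56 detected genes from its mean over the 4 arrays (log2), with the median of the members (orange) and of all detected genes (dashed black) on each array. The medians of the members run from 0.03 on replicate 2 to -0.05 on replicate 4, while those of all detected genes stay within 0.0194 of each other.

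Splicing genes outside the name pattern were examined as lists. Of 122 such genes with a probe, 103 were detected on all arrays, beside 55.8% of all named genes. The 16 genes of snRNP assembly (the SMN complex, the methyltransferase for Sm proteins and their partners), 9 of 9 spliceosomal helicases and partners, 10 of 10 Prp19 complex genes, 8 of 8 SR-related genes, 16 of 16 hnRNP genes and 7 of 7 branch point factors were all detected. Of the genes named Snrnp, 6 of 7 were detected, Snrnp25 being the exception, and of the minor spliceosome list, which shares Snrnp25, 5 of 6. The kinases of SR proteins were detected in 6 of 7 cases, without the muscle kinase Srpk3. The decapping and decay partners of the cytoplasmic LSm ring were detected in 6 of 7 cases, without Dcp1b. Among regulators of alternative splicing, 14 of 15 broadly expressed ones were detected, without Mbnl3, against 3 of 18 tissue-restricted ones. These lists were drawn up by breadth of expression, so a difference in detection was built into the choice of genes. The 3 detected tissue-restricted genes were Celf5, Ptbp2 and Khdrbs3. Nova1, Rbfox3, Elavl3, Srrm4 and Esrp1 were among those detected on no array, whereas Esrp2 passed on 3 arrays. These exceptions are named after their values were seen.

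Promoters were read from RefSeq on GRCr8, as 300 bases around the first listed start of each gene, 250 before it and 50 after it. They matched 56 of the 62 genes, of which 51 are detected genes. The promoters of the 56 matched genes held a median of 24 CpG dinucleotides and 58.2% G and C, against 21 and 60.7% for 7756 detected genes and 7 and 52.3% for all 27457 promoters. Short motifs were counted on both strands. CCGGAAG, the core bound by ETS factors, occurred in 18 of the 56 (32.1%), against 19.3% of promoters of detected genes and 9.22% of all. All 18 were detected genes, 35.3% of the 51. These genes include Snrpb, Snrpd1, Snrpe and Snrpg of the Sm core, all 3 Sf3a genes and Sf3b6. The motif was absent from the promoters of Snrpd2, Snrpd3, Snrpf and Snrpn. It was also absent from those of Sf3b1, Sf3b3, Sf3b4, Sf3b5, U2af1 and U2af1l4.

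Shares of other motifs in the 56 promoters are given against those in promoters of detected genes. GGGCGG, the GC box, occurred in 55.4% against 62.5%, CCAAT in 37.5% against 38.4% and TATAAA in 7.14% against 6.95%. The 4 promoters with TATAAA were those of Lsmem1, Snrpg, Srsf2 and Srsf3. None of these motifs contains another. A match describes the letters and is not a binding site, and no share was tested.

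The promoters of Snrpb and its paralogue Snrpn are shown because the array separates these genes by detection. That separation rests on 1 Snrpn probe, whose reading frame was not annotated. Capitals mark matches to the motifs above on either strand, so that CCGCCC is the GC box and ATTGG the CCAAT motif read on the opposite strand. The Snrpb window, at chr3:137832430-137832729 on the minus strand of GRCr8, holds CCAAT on both strands, a GC box and CCGGAAG. The Snrpn window, at chr1:120338870-120339169 on the minus strand, holds 1 match, ATTGG.
Snrpb: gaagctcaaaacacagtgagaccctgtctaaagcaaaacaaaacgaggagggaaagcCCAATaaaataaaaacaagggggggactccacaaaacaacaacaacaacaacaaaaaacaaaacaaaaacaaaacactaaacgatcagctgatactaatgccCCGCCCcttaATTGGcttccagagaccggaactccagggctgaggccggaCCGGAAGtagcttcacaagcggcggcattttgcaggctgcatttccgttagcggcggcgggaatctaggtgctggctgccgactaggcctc
Snrpn: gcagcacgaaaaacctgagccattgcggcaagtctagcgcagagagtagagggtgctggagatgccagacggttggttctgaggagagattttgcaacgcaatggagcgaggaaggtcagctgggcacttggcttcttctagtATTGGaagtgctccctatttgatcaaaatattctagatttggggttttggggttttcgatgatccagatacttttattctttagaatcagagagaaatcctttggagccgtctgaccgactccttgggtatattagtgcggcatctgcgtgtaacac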

How the data were processed

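The 4 samples are NR8383 RNA on one-colour arrays scanned and extracted by Agilent Feature Extraction 11.0.1.1, per the file headers and the submitters' processing notes. The values used are the deposited processed signal, a fluorescence intensity on a linear scale that the software had corrected for background, with its flags, per the file headers; they were not normalized between arrays. The mean and background median intensities, also deposited, served the normexp alternative. Spots that the software marked non-uniform or outlying were dropped. Levels, defined above, were averaged over spots of a probe. Undetected genes are represented by their brightest probe.

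The variance test was fitted in R 4.3.3 with limma 3.58.1 on all 19400 detected probes: an F test of residual variance, with a robust prior trended on mean signal, and Benjamini-Hochberg adjustment at 0.05. It was also run on data simulated from its own prior, with the outcome not reported here. Tables were made in Python 3.11.15 with pandas 2.3.3 and numpy 2.4.6, and figures with matplotlib 3.10.9. With 4 arrays, their number sets how precise any value is.

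Members and gene lists were chosen with earlier results of these data known. Values in every replicate are given for the first detected symbol of each class, the 6 largest and 3 smallest SDs, genes not detected, genes with a probe detected on all arrays and another on none, and genes marked by Dixon's ratio; other per-replicate values were chosen after they were seen. All 62 symbols are current in RefSeq, and 85 of 96 probes matched it by accession, all to the same symbol. Coordinates of probes are those of the files, on rn4, with no exon or UTR annotation. Genes in the splicing lists that the files' names did not match were not analysed here. Promoter motifs were chosen after the array values were seen, and 3 longer motifs that were also counted are not reported here. The values of 1 counted gene are likewise not reported.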

Additional observations from a re-analysis of the deposited data

Results flagged for a closer look

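In 2 of the 56 detected genes replicate 4 lay apart from the other arrays, with a gap to the nearest array that took up most of the whole range. U2af1 had a ratio of gap to range of 0.918, with a level of 2.21 on replicate 4 against 2.48 to 2.50 on the others. Srsf10 had a ratio of 0.842, with -0.73 on replicate 4 against -0.66 to -0.65 on the others, a 1.06-fold range. Dixon's 95% critical value marks about 1 in 20 groups by chance, and 5% of all detected genes were marked.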

How the results depend on the processing

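No paired analysis was possible because all samples share 1 group, with no second condition to pair. The count of 56 detected genes was 59 with the positive and significant flag, which added Lsm14b, Snrpf and Snrpn, 57 where 2 arrays sufficed, 52 where all probes had to pass, and 56 with outlier spots kept, with updated symbols and without any 1 replicate. The variance test called 0 member probes under every alternative run, which were normexp, quantile, median and spike-in scaling, outlier spots kept, a prior without the robust step or the trend, no filter on dim probes, a threshold of 0.01, and each replicate left out. Over all probes it called 33, but 270 with normexp, 1121 with no filter, 50 with the median scale, 1 with the spike-in scale, 0 without the robust step, without the trend or at 0.01, and 0 to 75 when single replicates were omitted. The median SD of the members became 0.507 with the spike-in scale and ranged over 0.0645 to 0.0920 when single replicates were omitted. The range of their median deviation became 1.07 with the spike-in scale, 0.0483 without replicate 2, 0.0497 without replicate 4, and at most 0.0803 with a replicate left out. The spike-in scale shifts every gene of an array alike. With it the medians of all detected genes were 0.39, 0.40, -0.21 and -0.59 on replicates 1 to 4. Why the spike-in probes and the percentile differ between arrays was not tested. With the percentile as the scale, the members' median deviation was highest on replicate 2 (0.03) and lowest on replicate 4 (-0.05). These values set the range of 0.0886, which therefore depends on those replicates. Normexp moved the level of 40 of 56 detected genes by more than their SD between replicates. Signal near background limits Snrpf, Snrpn and Lsm14b, and 36 of the 62 genes rest on 1 probe.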
